A study of Homo sapiens with 21 samples.

Results

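The baseline difference between a pair of human myeloid lines was read from 6 of the 21 arrays of the series: 3 arrays of U937 cells and 3 arrays of HL-60 cells, all with the control hairpin shLuc. The arrays were chosen by the line and hairpin in their labels, and no measured value entered the choice. U937 is an established line from a histiocytic lymphoma and is widely used as a monocytic model. HL-60 is an established line from an acute myeloid leukaemia with the look of promyelocytes. Cells of both lines had been infected with a hairpin directed at luciferase, a gene that human cells lack, were kept in puromycin at 1 µg/ml from 48 h and were harvested for RNA on day 5. Both groups therefore carry a hairpin and a drug selection, and uninfected cells were not analysed here. The 3 arrays of a group are separate transductions of 1 line. Each p-value sets the difference against the spread between transductions, pooled over all 21 arrays in 9 groups of line and hairpin. A difference below is one between U937 and HL-60 and was not tested in other monocytic or promyelocytic lines. The series itself asks how the kinase SYK acts on the receptor FLT3. For comparison, the same line difference was read on the 4 U937 and 4 HL-60 arrays that carry hairpins against SYK (shSYK_1 and shSYK_2, 2 arrays each per line).

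Myeloid progenitors mature along routes that end in granulocytes or monocytes. At the promyelocyte stage the granulocytic route fills primary (azurophil) granules with myeloperoxidase, serine proteases and antimicrobial proteins. Secondary granule proteins come later. Monocytes lose most primary granule RNA and gain CD14, the receptor of the growth factor CSF1 and lysosomal enzymes. The factors CEBPA and CEBPE favour the granulocytic route, and IRF8 and KLF4 favour the monocytic one.

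RNA was measured with Affymetrix high-throughput human arrays, on which each transcript is read by sets of short probes. The deposited values are RMA intensities on a linear scale. Differences are given here as U937 minus HL-60 on the log2 scale. A gene was called, and is written as higher or lower in U937, where limma's Benjamini-Hochberg adjusted p over all genes tested was below 0.05. Intensities under 32 (log2 of 5) are treated as low. RMA gives no detection call, and from 55.4% to 56.8% of the probe sets of each of the 6 arrays lay under that level. Folds measured from such levels understate the change in RNA. Replicates of a line correlated at 0.997 to 0.998 (Pearson r across probe sets), and no pair of arrays was a duplicate. The median intensity was 19.99 to 20.24 on the U937 arrays and 18.4 to 18.7 on the HL-60 arrays.

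Of 12165 genes tested, 6421 (52.8%) were called: 3134 (25.8%) were higher in U937 and 3287 (27%) were lower. At least 1 log2 separated the lines for 1682 genes (13.8%), of which 1051 (8.64%) were higher and 631 (5.19%) lower in U937. The direction of small differences rests on the scaling of the arrays. With each array centred on its own median, the median difference over all genes moved from -0.05 to -0.30, a shift that exceeds many called differences. Called genes then split into 2200 higher and 6980 lower in U937, and those of at least 1 log2 into 763 higher and 1092 lower. A list of genes is therefore given below with its counts on the deposited scale and, beside them, with the arrays centred. So many genes were called that a list with about 50% of its members called does not differ from the rest of the array. Without the dimmest 40% of genes, 77.6% of the rest were called, so the share of a list also follows the brightness of its members. The median size of a called difference was 0.61, and 38.9% of called genes differed by less than 0.5. The arrays of the lines did not overlap for 7269 genes (59.8%). Many list members below were named for a small p or after their values were seen, so their lack of overlap is a description. A mean log2 of at least 7 in U937 and under 5 in HL-60 was found for 98 genes (0.806%), and the opposite for 56 (0.46%).

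**Figure D1:**
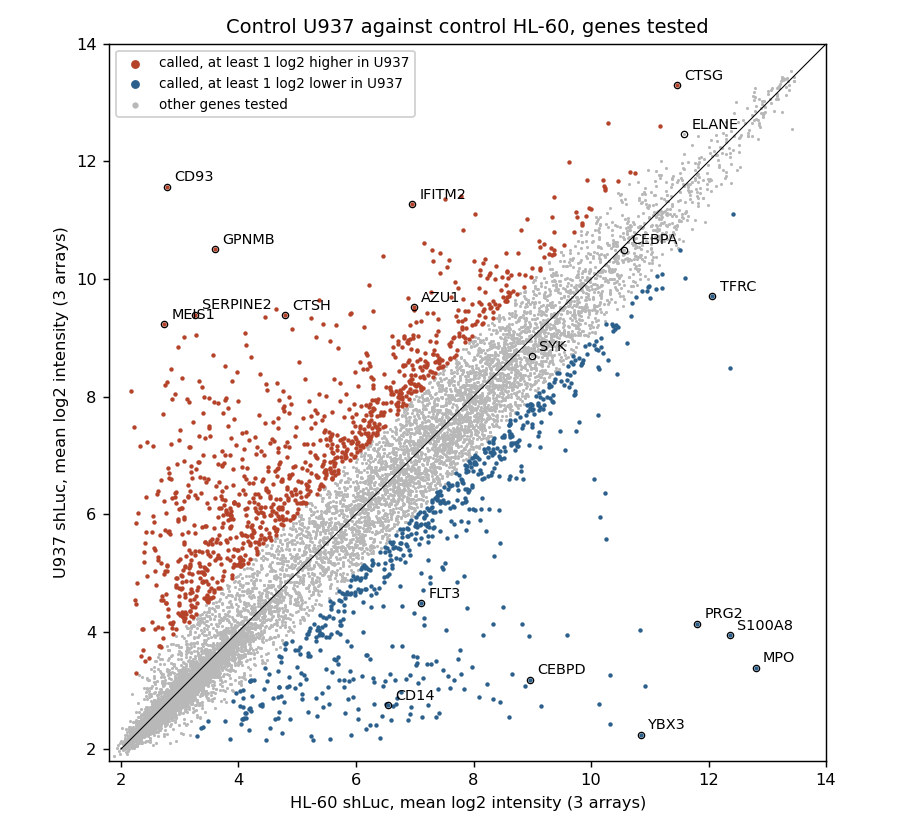
Mean log2 intensity of each gene tested on the 3 U937 shLuc arrays (vertical axis) against the 3 HL-60 shLuc arrays (horizontal axis). Red points are the 1051 genes called at least 1 log2 higher in U937, blue points the 631 called at least 1 log2 lower, and the line marks equal values. CD93 (11.57 in U937 and 2.78 in HL-60) and MPO (3.39 in U937 and 12.80 in HL-60) lie farthest from it, while CEBPA lies on it.

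Among the genes most in favour of U937 were cell-surface proteins, a homeobox pair and an antiviral editing enzyme. CD93, a membrane C-type lectin of myeloid and endothelial cells, read 2957, 3203 and 2966 on the U937 arrays and 7.39, 7.26 and 6.07 on the HL-60 arrays. All 3 U937 arrays were high and all 3 HL-60 arrays were low, a difference of 8.79 (SE 0.0732, limma adjusted p = 4.29e-21). GPNMB, a transmembrane glycoprotein of macrophages and pigment cells, read 1474, 1406 and 1480 in U937 and 11.5, 11.3 and 13.6 in HL-60 (difference 6.91). The homeobox factor MEIS1, a partner of HOX proteins in leukaemic stem cells, read 604, 600 and 597 in U937 and 6.07, 5.74 and 8.58 in HL-60 (difference 6.49). The HL-60 values of both genes lie where the array does not separate weak expression from background. SERPINE2, an inhibitor of serine proteases, read 756, 596 and 676 in U937 and 9.05, 9.18 and 10.5 in HL-60 (difference 6.14). The activation antigen CD69 read 268, 284 and 264 in U937 and 4.63, 4.73 and 4.2 in HL-60 (difference 5.91). APOBEC3B, a cytidine deaminase that restricts viruses and edits tumour DNA, read 310, 275 and 301 in U937 and 6.44, 7.28 and 6.50 in HL-60 (difference 5.45). In bulk RNA, fewer cells with a transcript and less of it per cell cannot be told apart. All 6 were chosen for arrays that did not overlap, so their lack of overlap is a description. The other genes among the 15 largest were TUBB6, PCCA, IGFBP2, PTPRN2, WFDC1, HOXC6, DENND2D, CYP46A1 and IL32, with differences of 5.93 for TUBB6 down to 5.09 for IL32. PCCA, a subunit of mitochondrial propionyl-CoA carboxylase, had a further probe set that differed by 0.04, and the further probe sets of PTPRN2 went down to 0.13.

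Among the genes most in favour of HL-60 were granule and calcium-binding proteins and genes with no tie to granules. MPO, the peroxidase of primary granules, read 9.31, 12.6 and 9.70 in U937 against 7219, 6844 and 7364 in HL-60. The lines were far apart, with a difference of -9.42 (SE 0.114, limma adjusted p = 4.45e-19), and the further MPO probe set gave -9.19. S100A8 and S100A9 form calprotectin, a calcium-binding complex of neutrophils and monocytes. S100A8 read 17.4, 13.1 and 15.7 in U937 and 5377, 5273 and 5151 in HL-60 (difference -8.43), with -2.96 on a further probe set. S100A9 read 9.01, 11.1 and 8.77 in U937 and 1260, 1345 and 1246 in HL-60 (difference -7.07). Every U937 array was low for both subunits and every HL-60 array high. PRG2, the major basic protein of eosinophil granules, read 16.9, 16.3 and 19.7 in U937 and 3616, 3577 and 3525 in HL-60 (difference -7.67). Of the genes without a tie to granules, YBX3, a cold-shock domain protein that binds RNA and DNA, read 6.51, 4.66 and 3.49 in U937 and 1854, 1822 and 1853 in HL-60 (difference -8.61). A further YBX3 probe set differed by -0.36. HMGN3, a nucleosome-binding protein, read 4.82, 6.89 and 4.67 in U937 and 1294, 1278 and 1250 in HL-60 (difference -7.89). SDCBP, the adaptor syntenin, read 7.19, 9.89 and 8.44 in U937 and 1912, 1948 and 1933 in HL-60 (difference -7.84). These 3 genes were low on all U937 arrays. The lysosomal membrane protein LAPTM4B (-7.37), lipoprotein lipase LPL (-6.80), the folate hydrolase GGH (-6.41), carbonic anhydrase CA2 (-6.04), the tetraspanin CD81 (-5.81), the factor CEBPD (-5.79), bleomycin hydrolase BLMH (-5.65) and SERPINB10 (-5.65) completed the 15.

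**Figure D2:**
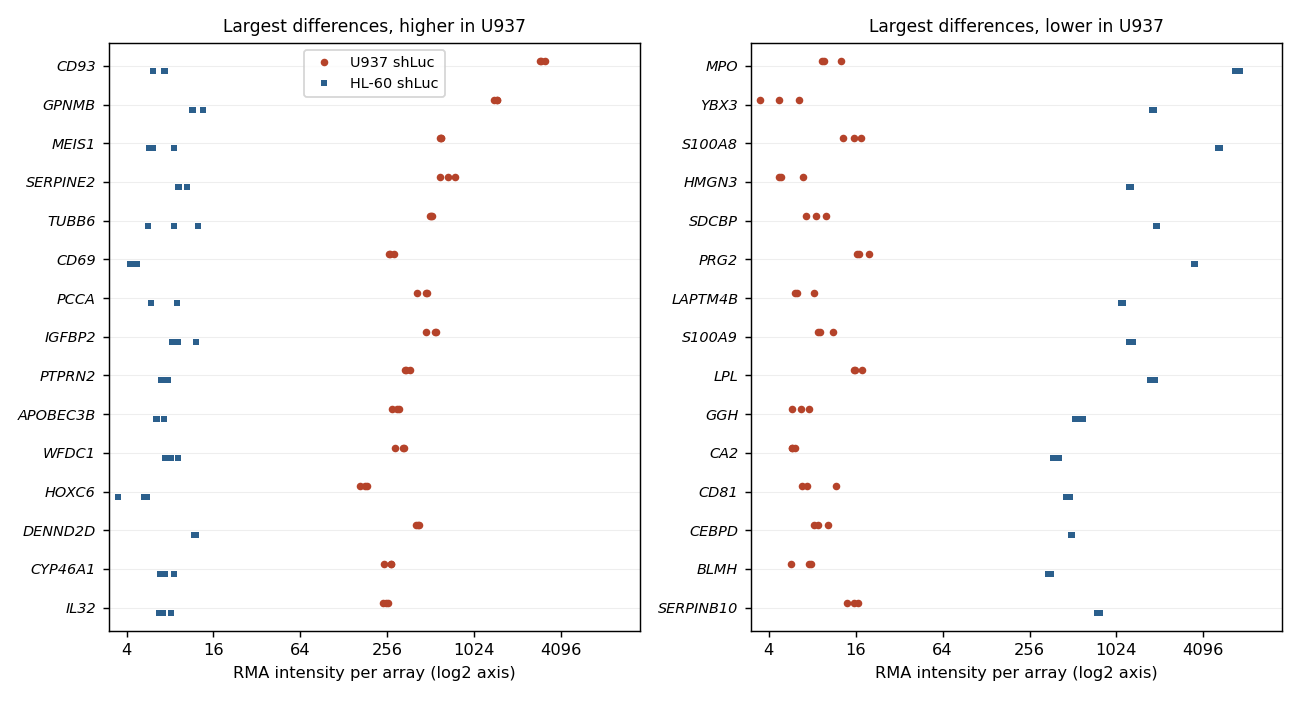
Intensity on every U937 shLuc array (circles) and HL-60 shLuc array (squares), on a log2 axis, for the 15 genes with the largest positive and the 15 with the largest negative difference among called genes whose arrays did not overlap, whose probe sets had the same sign and whose higher line averaged at least 7 log2. The lack of overlap was thus fixed by the choice of genes. CD93 spans 2957 to 3203 in U937 and MPO spans 6844 to 7364 in HL-60.

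The list of primary granule genes did not move as a block. It also holds eosinophil genes (PRG2, CLC and RNASE2), the inhibitors CST7 and SERPINB1 and the membrane protein MS4A3. PRG2 and CLC are counted again among the eosinophil markers below. Of 15 measured, 6 were higher in U937 and 8 were lower (median -0.88, against -0.05 over all genes), and with centred arrays 5 were higher and 9 lower. The serine proteases of primary granules were split between the lines. ELANE, neutrophil elastase, read 5704, 5684 and 5595 in U937 and 3147, 2945 and 3140 in HL-60 (difference 0.88, SE 0.0609). CTSG, cathepsin G, read 9833, 10405 and 9921 in U937 and 2856, 2765 and 2888 in HL-60 (difference 1.83). AZU1, azurocidin, a protease homologue without enzyme activity, read 713, 751 and 734 in U937 and 138, 122 and 120 in HL-60 (difference 2.53). The U937 arrays were the higher ones for each of these 3 genes, with no overlap. PRTN3, proteinase 3, went the other way, with 386, 397 and 401 in U937 and 1235, 1282 and 1235 in HL-60 (difference -1.66). BPI, which binds bacterial lipopolysaccharide, read 8.34, 14 and 7.78 in U937 and 414, 388 and 403 in HL-60 (difference -5.37). The defensin DEFA4 read 10.3, 8.06 and 8.93 in U937 and 59.2, 63.6 and 44.8 in HL-60 (difference -2.61). The U937 arrays were at low levels for BPI and DEFA4 and well above them for PRTN3. CST7, an inhibitor of cysteine proteases (1.42), and SERPINB1, an inhibitor of elastase (0.71), were higher in U937. The progenitor membrane protein MS4A3 (-1.57) and the granule proteoglycan SRGN (-0.88) were lower. RNASE2, an eosinophil granule ribonuclease, was slightly higher (0.21) and not called, with a negative sign, when arrays were centred.

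Genes of later neutrophil stages leaned to HL-60. Of 23 measured, 1 was higher in U937 and 13 were lower (0 and 19 with centred arrays), and 15 of the 23 stayed under an intensity of 32 in both lines. Their summed intensity was 356 to 395 on the U937 arrays and 2136 to 2183 on the HL-60 arrays, where CHI3L1 alone read 1192 to 1251. HP, haptoglobin, read 12, 11.4 and 11.2 in U937 and 215, 217 and 207 in HL-60 (difference -4.21). CHI3L1, a chitinase-like secreted protein, read 70.0, 88.0 and 89.2 in U937 and 1251, 1192 and 1195 in HL-60 (difference -3.89). ARG1, arginase, read 6.56, 7.41 and 6.50 in U937 and 85.3, 88.5 and 99.4 in HL-60 (difference -3.74). For all 3 the HL-60 arrays were higher without overlap, though the further CHI3L1 probe sets reached -0.14. The receptor of bacterial formyl peptides FPR1 (-3.56), the calcium-binding protein S100A12 (-2.58) and the adhesion protein CEACAM6 (-2.44) were lower in U937 as well. A further FPR1 probe set differed by 0.01, and CEACAM6 has close relatives whose transcripts its probes may bind. The gene higher in U937 was CAMP, the secondary granule peptide cathelicidin, at 16.1, 14.2 and 16.2 in U937 and 12.9, 9.10 and 12.3 in HL-60. Its arrays were low in both lines, and with centred arrays it was not called higher.

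The label of U937 as a monocytic line was set against 32 measured monocyte and macrophage genes. Of these, 9 were higher in U937 and 12 lower (median -0.11; 9 higher and 18 lower with centred arrays), and 14 were under an intensity of 32 in both lines. CD14, the lipopolysaccharide coreceptor that defines blood monocytes, read 6.60, 7.63 and 5.98 in U937 and 89.4, 97.3 and 94.2 in HL-60. U937 was the low line for this marker (difference -3.80, SE 0.133, limma adjusted p = 1.99e-13). CSF1R, the CSF1 receptor, read 14.4, 16 and 15.1 in U937 and 16.1, 19.3 and 15.2 in HL-60. CSF1R was low in both lines, with overlapping arrays (difference -0.15, limma adjusted p = 0.468). With centred arrays it was called lower in U937. ITGAX, CD163, CD68 and MRC1 were low and overlapped as well. CCR2, a chemokine receptor of classical monocytes, read 9.54, 10.1 and 7.79 in U937 and 213, 209 and 190 in HL-60 (difference -4.49). LST1 (-1.28), a leukocyte membrane protein, the costimulator CD86 (-2.13) and the Fc receptor FCGR1A (-0.89) were also lower in U937. Higher in U937 were CX3CR1, the fractalkine receptor, at 120, 122 and 115 against 26.4, 29.3 and 23.3 in HL-60 (difference 2.18), the lysosomal protease CTSB (1.20), the inhibitory receptor LILRB2 (1.63) and the scavenger receptor MARCO (1.58). Of the markers that define blood monocytes, CD14 was thus lower in U937 and CSF1R did not pass the test.

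**Figure D3:**
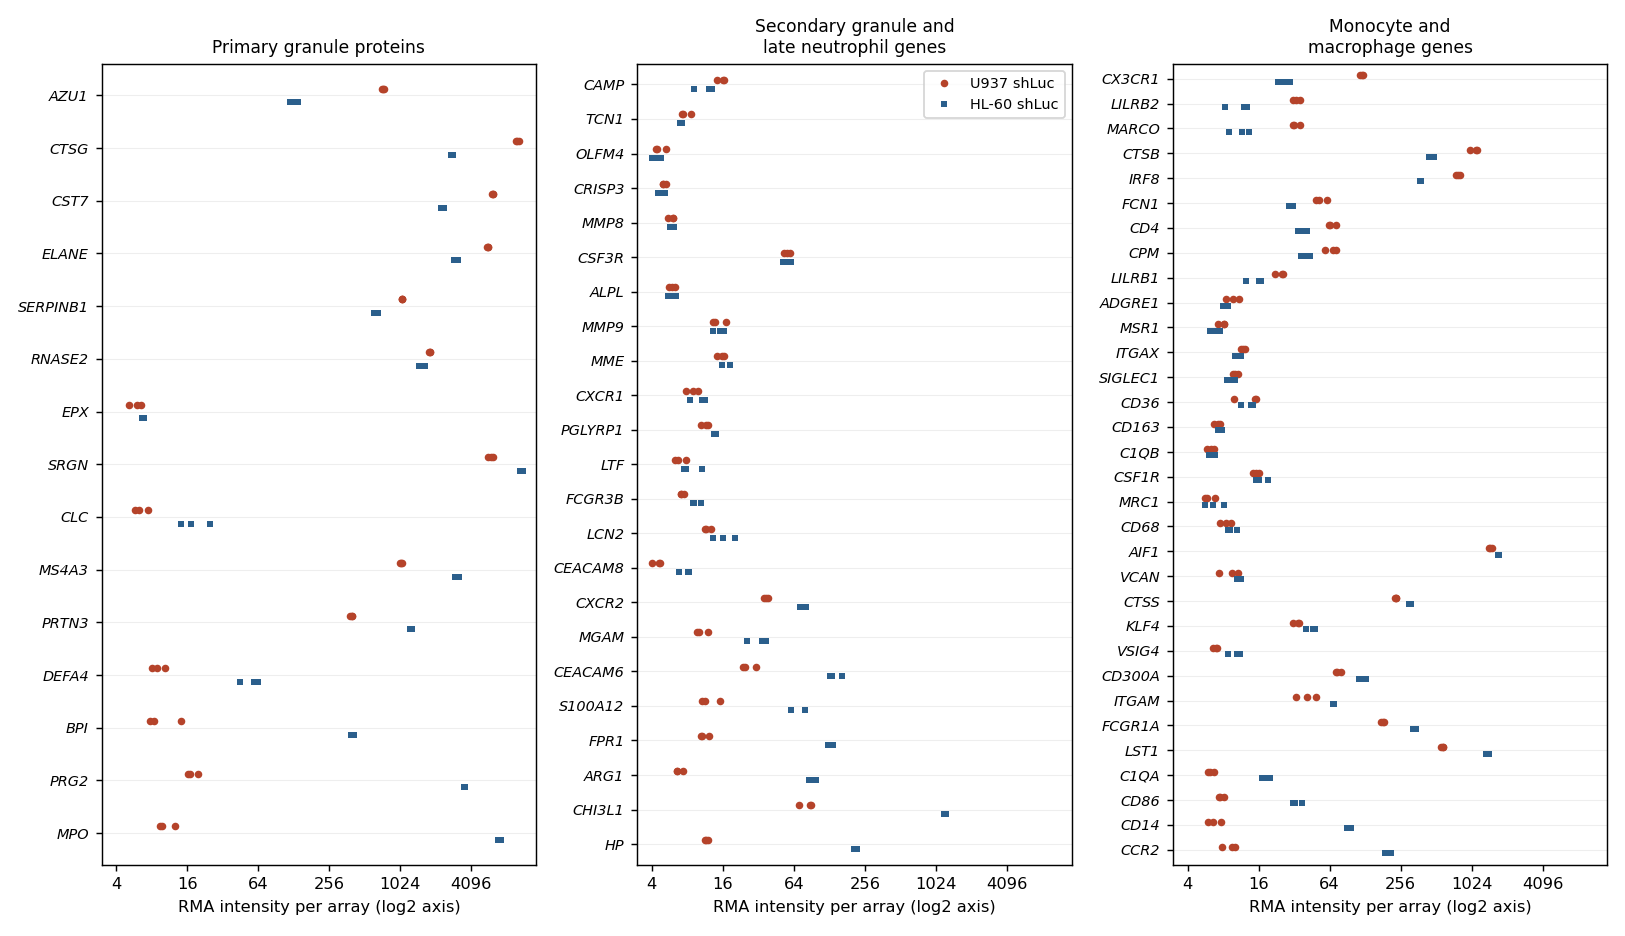
Intensity on each U937 shLuc array (circles) and HL-60 shLuc array (squares), on a log2 axis, for all measured members of the lists of primary granule proteins (15 genes), later neutrophil genes (23) and monocyte and macrophage genes (32), ordered by the difference. The list of primary granule proteins includes eosinophil genes such as PRG2 and CLC. AZU1, CTSG and ELANE lie to the right in U937, and MPO, PRG2, BPI and the protease PRTN3 lie to the right in HL-60. CSF1R, CD68 and CD163 overlap at low levels.

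Transcription factors of the myeloid lineage went both ways. Of 47 measured, 22 were higher in U937 and 12 lower (median 0.15), a balance that turned with centred arrays (16 higher, 20 lower, median -0.11). CEBPA, which starts the granulocytic programme, read 1487, 1494 and 1363 in U937 and 1567, 1499 and 1481 in HL-60, with overlapping arrays (difference -0.07, limma adjusted p = 0.391), although centred arrays called it lower in U937. CEBPE, needed for secondary granules, read 34.3, 31.9 and 37.1 in U937 and 173, 180 and 174 in HL-60 (difference -2.36). CEBPD, of the same family, read 10.3, 8.78 and 8.27 in U937 and 502, 501 and 500 in HL-60 (difference -5.79, and down to -0.64 on further probe sets). CEBPB, used in emergency granulopoiesis and in macrophages, was on the U937 side at 1391, 1442 and 1493 against 648, 671 and 672 in HL-60 (difference 1.12). So CEBPA was level, CEBPD and CEBPE were lower in U937, and CEBPB was higher. IRF8, a driver of the monocyte fate, read 816, 785 and 762 in U937 and 379, 382 and 371 in HL-60 (difference 1.06). GFI1, a repressor that favours granulocytes, was higher in U937 too, at 883, 876 and 885 against 471, 448 and 493 in HL-60 (difference 0.91). WT1, a zinc finger factor of leukaemic blasts, read 7.38, 12.3 and 6.18 in U937 and 204, 194 and 184 in HL-60 (difference -4.55). GATA2, a factor of stem cells and mast cells, read 15.3, 12 and 13.2 in U937 and 68.6, 137 and 140 in HL-60 (difference -3.03), with HL-60 replicate 1 well under its fellows. The inhibitor of differentiation ID1 (3.16), the early response factor EGR1 (3.12), SOX4 (1.55) and RUNX3 (1.45) were higher in U937. EGR1 varied most among these, from 97.6 to 154 in U937. CD34, the progenitor antigen, was low in both lines (difference -0.04, limma adjusted p = 0.800).

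HOX genes keep stem and progenitor cells from maturing, and MEIS and PBX proteins are their cofactors on DNA. U937 is known to carry a PICALM-MLLT10 fusion, a class of lesion linked to high HOXA and MEIS1 expression. Whether the fusion bears on the line differences was not tested. Only 13 of the 25 listed genes were among those tested, and HOXA9 and HOXA10 were not analysed here. Of the 13, 6 were higher in U937 and 2 were lower (6 and 4 with centred arrays, where the median turned from 0.13 to -0.12). Beside MEIS1, 3 genes of the HOXC cluster were higher. HOXC6 read 187, 167 and 180 in U937 and 5.25, 3.5 and 5.52 in HL-60 (difference 5.25). HOXC4 read 96.6, 99.4 and 99.6 in U937 and 9.97, 9.47 and 11.2 in HL-60 (difference 3.27). HOXC10 read 53.7, 56.0 and 54.8 in U937 and 10.3, 9.85 and 11 in HL-60 (difference 2.40). All U937 arrays lay above all HL-60 arrays for the 3 genes, and the HL-60 values were low. The cofactor PBX3 was higher in U937 (1.25), whereas MEIS2 was lower, at 57.3, 63.9 and 56.9 in U937 and 145, 172 and 156 in HL-60 (difference -1.41).

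Interferon-stimulated genes code for antiviral effectors and are switched on when the complex ISGF3 binds interferon-stimulated response elements in their promoters. Of 41 measured, 20 were higher in U937 and 5 lower (median 0.23), and with centred arrays the median turned to -0.02 (17 higher, 15 lower). The summed intensity of the list was 6479 to 6774 on the U937 arrays and 1747 to 1823 on the HL-60 arrays. Much of the U937 sum came from IFITM2, IFITM3 and MX2, whose values are given below. Promoters are shown for 3 members that were higher in U937 (IFITM1, IFITM3 and IFI6) and 1 that was lower (PLSCR1), so that the response element can be read in both. They are RefSeq sequences of build GRCh38.p14, read 5′ to 3′ on the strand of the gene, with 180 bases before the transcription start and the first 20 bases of the transcript. The windows are chr11:313860-314059 (plus strand), chr11:320841-321040 (minus), chr1:27672173-27672372 (minus) and chr3:146544588-146544787 (minus, the first start listed of 2). Capitals mark matches to the core of the element, which was searched on both strands as GAAA, any 2 bases and GAAA again.
IFITM1: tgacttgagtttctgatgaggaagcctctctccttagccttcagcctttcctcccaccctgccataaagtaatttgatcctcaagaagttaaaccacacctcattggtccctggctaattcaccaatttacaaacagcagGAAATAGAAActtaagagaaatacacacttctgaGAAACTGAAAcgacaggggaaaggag
IFITM3: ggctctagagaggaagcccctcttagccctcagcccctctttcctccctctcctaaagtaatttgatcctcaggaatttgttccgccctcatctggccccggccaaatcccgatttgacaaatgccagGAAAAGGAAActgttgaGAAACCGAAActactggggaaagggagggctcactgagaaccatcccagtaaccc
IFI6: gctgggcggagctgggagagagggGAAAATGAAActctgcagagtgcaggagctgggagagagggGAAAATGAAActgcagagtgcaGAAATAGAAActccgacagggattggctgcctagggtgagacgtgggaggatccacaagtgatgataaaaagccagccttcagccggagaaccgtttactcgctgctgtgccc
PLSCR1: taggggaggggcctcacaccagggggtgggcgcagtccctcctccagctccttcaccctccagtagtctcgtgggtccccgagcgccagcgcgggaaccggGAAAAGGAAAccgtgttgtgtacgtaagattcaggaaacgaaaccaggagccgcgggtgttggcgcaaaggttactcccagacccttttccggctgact
IFITM1 holds 2 matches, starting at -40 and -6 from the transcription start, IFITM3 holds 2 (-52 and -35), IFI6 holds 3 (-156, -115 and -93) and PLSCR1 holds 1 (-79). In windows of 300 bases, 3.57% of the 35116 RefSeq promoters hold a match. Counted by gene, 4.14% of the 9711 tested genes with an entry held one in at least 1 promoter, and 22 of the 32 list members with an entry did. These were 13 of the 16 members higher in U937, 2 of the 3 lower ones and 7 of the 13 not called, and 9 members had no entry. A match is a string of letters and was not tested as a binding site.

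The IFITM proteins, which block virus entry at membranes, were higher in U937. IFITM1 read 175, 164 and 179 in U937 and 7.99, 7.53 and 8.47 in HL-60 (difference 4.43). IFITM2 read 2480, 2433 and 2534 in U937 and 118, 125 and 128 in HL-60 (difference 4.32). IFITM3 read 657, 648 and 752 in U937 and 71.5, 57.0 and 54.7 in HL-60 (difference 3.5). All 3 were high on every U937 array, but they are near-identical genes and their probes may bind each other's transcripts. MX2, a GTPase that blocks nuclear entry of viral genomes, read 649, 630 and 674 in U937 and 22.3, 23.1 and 20.3 in HL-60 (difference 4.90). IFI6, a mitochondrial protein with the promoter shown above, read 252, 247 and 228 in U937 and 34.8, 43.0 and 32.8 in HL-60 (difference 2.72). UBE2L6, an enzyme of ISG15 conjugation (2.18), BST2, which tethers budding virus (1.29), and ISG15 itself (0.72) were higher in U937. The list did not move together. PLSCR1, a phospholipid scramblase whose promoter holds the same core, read 68.2, 85.1 and 74.7 in U937 and 168, 173 and 160 in HL-60 (difference -1.14). IFI35 read 26.3, 22.5 and 26.6 in U937 and 57.5, 51.9 and 57.9 in HL-60 (difference -1.15), and the RNA-binding protein IFIT2 was low in both lines (difference -0.66). IRF7, an amplifier of interferon production, did not pass the test (difference -0.12, limma adjusted p = 0.267).

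Antigen presentation differed gene by gene. Of 18 measured genes of the MHC class I pathway, 6 were higher in U937 and 8 lower (4 and 12 with centred arrays). The immunoproteasome subunits PSMB8 and PSMB9 trim peptides for class I molecules. PSMB8 read 861, 894 and 843 in U937 and 403, 409 and 372 in HL-60 (difference 1.13). PSMB9 read 264, 266 and 276 in U937 and 112, 123 and 122 in HL-60 (difference 1.18). The third such subunit, PSMB10, was lower in U937, at 276, 300 and 285 against 609, 637 and 631 in HL-60 (difference -1.12). The subunits were thus split between the lines. The light chain B2M did not pass the test (difference -0.10, limma adjusted p = 0.0917), but was called lower in U937 under 5 alternative settings, both other scalings of the arrays among them. TAP2, a chain of the peptide transporter, was lower on its brightest probe set (-1.50), but its other probe sets went up to 0.65. Of 20 class II and costimulator genes, 7 were higher in U937 and 3 lower, and the median turned from 0.14 to -0.11 with centred arrays (6 higher, 8 lower). With 50% called, the list was near the 52.8% of all genes. HLA-DMA, which loads class II peptides, read 49.0, 42.6 and 43.6 in U937 and 12.7, 10.6 and 10.4 in HL-60 (difference 2.0). CD74, the invariant chain, read 130, 126 and 124 in U937 and 66.5, 72.7 and 71.1 in HL-60 (difference 0.85). HLA-DRB1 was higher by 1.37, with probes that related HLA genes may share. CIITA, the master activator of class II genes, was low in both lines (difference 0.15, limma adjusted p = 0.218).

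SYK, the target of the study's hairpins, was close between the control lines. It read 404, 415 and 415 in U937 and 480, 532 and 514 in HL-60, a slightly lower level in U937 without overlap (difference -0.30, SE 0.073, limma adjusted p = 0.00181). Its further probe set differed by 0.21 in the other direction, and the mean of both was not called, so the sign is uncertain. SYK docks on phosphorylated ITAM motifs of adaptors such as TYROBP and FCER1G, and passes the signal to BLNK, BTK and further enzymes. Of 46 measured components, 20 were higher in U937 and 13 lower (median 0.13), which turned with centred arrays to 15 and 20 (median -0.12). TYROBP read 141, 140 and 126 in U937 and 757, 762 and 732 in HL-60 (difference -2.47). FCER1G read 348, 369 and 364 in U937 and 392, 379 and 367 in HL-60, with overlap (difference -0.07, limma adjusted p = 0.382). Of the 2 adaptors, TYROBP was thus lower in U937 and FCER1G did not pass the test. BLNK, a scaffold phosphorylated by SYK, read 59.3, 58.1 and 58.8 in U937 and 9.22, 6.83 and 7.66 in HL-60 (difference 2.90). The kinase BTK read 867, 873 and 900 in U937 and 398, 350 and 404 in HL-60 (difference 1.20). STAT5A, a factor activated below cytokine receptors and FLT3, read 120, 168 and 144 in U937 and 29.6, 30.1 and 23.8 in HL-60 (difference 2.37). All U937 arrays were the higher ones for these 3. PRKCB was higher as well (0.84), and RASGRP2, an exchange factor for RAP proteins, was lower (-1.46). The kinase LYN did not pass the test (difference -0.03, limma adjusted p = 0.755).

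FLT3, the receptor of interest in the study, read 21, 17.9 and 29.7 in U937 and 138, 151 and 126 in HL-60. The U937 arrays were low and did not overlap the HL-60 arrays (difference -2.62, SE 0.13, limma adjusted p = 1.81e-11). Among 54 measured cytokine and growth factor receptors, 19 were higher in U937 and 13 lower (17 and 24 with centred arrays, where the median turned from 0.02 to -0.24). The share called was 59.3%, against 52.8% of all genes. TYRO3 and MERTK, receptors for ligands that mark dying cells, were on the U937 side. TYRO3 read 112, 113 and 102 in U937 and 10.3, 8.76 and 9.90 in HL-60 (difference 3.5). MERTK read 82.1, 74.8 and 52.5 in U937 and 6.89, 9.36 and 8.56 in HL-60 (difference 3.06), with a further probe set at -0.06. IL2RG, the shared chain of several interleukin receptors, read 143, 150 and 141 in U937 and 13.7, 17.0 and 16 in HL-60 (difference 3.22). CSF2RA, the specific chain of the GM-CSF receptor, was higher (1.42), while its partner CSF2RB was lower (-0.48). The transferrin receptor TFRC, which imports iron, read 761, 973 and 787 in U937 and 4074, 4438 and 4354 in HL-60 (difference -2.36). IL17RA was lower too (-1.47).

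Receptors for antibodies, microbes and attractants went both ways. Of 43 measured, 11 were higher in U937 and 17 lower (9 and 30 with centred arrays). FCGRT, the receptor that recycles IgG, read 369, 390 and 399 in U937 and 70.8, 69.2 and 62.2 in HL-60 (difference 2.52). P2RY2, a receptor for extracellular ATP, read 46.2, 50.1 and 41.2 in U937 and 362, 344 and 342 in HL-60 (difference -2.93). C3AR1, the receptor of the complement fragment C3a, read 41.6, 35.3 and 31.6 in U937 and 190, 166 and 197 in HL-60 (difference -2.36). TLR2, a sensor of bacterial lipoproteins, was lower as well (-1.96). FCGR2A was higher (1.02), although its probes may also bind FCGR2B. Among 43 cytokines, chemokines and their receptors, 9 were higher and 9 lower in U937 (8 and 28 with centred arrays), and 24 were low in both lines. That share, 41.9% called, was under the 52.8% of all genes. Without the dimmest 40% of genes, 20 members were left and 85% of them were called (9 higher, 8 lower), against 77.6% of all genes. Their median then turned from -0.11 to 0.13. CXCL8, which attracts neutrophils, read 53.7, 48.5 and 41.2 in U937 and 1196, 1246 and 1229 in HL-60 (difference -4.69), but 1 of its 9 probe sets was near 0. TNF read 17.7, 21.3 and 21.1 in U937 and 133, 134 and 113 in HL-60 (difference -2.66). In the other direction, CCL5, which attracts T cells, read 720, 761 and 661 in U937 and 130, 119 and 134 in HL-60 (difference 2.48). IL18 (2.11) and IL32 (5.09) were higher in U937 too.

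Adhesion molecules included some of the wider gaps. Of 41 measured, 17 were higher in U937 and 6 lower (median 0.14), and the median turned to -0.11 with centred arrays (15 higher, 17 lower). The share called was 56.1%, near the 52.8% of all genes, but 85.7% against 77.6% without the dimmest 40% of genes. ITGA6, a laminin receptor chain, read 537, 539 and 545 in U937 and 16.6, 16.8 and 18.5 in HL-60 (difference 4.97). ICAM1, the ligand of leukocyte integrins, read 116, 118 and 120 in U937 and 10.4, 9.38 and 10.1 in HL-60 (difference 3.57). ICAM4 read 150, 148 and 161 in U937 and 8.19, 7.15 and 8.66 in HL-60 (difference 4.26). No arrays overlapped for these 3 genes, which were named for their small p. CD44, the hyaluronan receptor (2.30), and CD99 (2.66) were higher as well, with 1 of 8 CD44 probe sets at -0.13. ITGAL, the chain of LFA-1, read 83.7, 81.6 and 90.7 in U937 and 206, 222 and 214 in HL-60 (difference -1.33), and ITGB7 was lower from low levels (difference -1.63). Of 43 measured annexins, S100 proteins and cytoskeletal genes, 20 were higher in U937 and 10 lower, with 19 and 19 under centring (median turned from 0.17 to -0.08). ANXA2 and ANXA1, both calcium-dependent membrane binders, differed in opposite directions. ANXA2 read 1618, 1559 and 1546 in U937 and 141, 142 and 146 in HL-60 (difference 3.46). ANXA1 read 91.8, 95.2 and 104 in U937 and 1080, 1056 and 1061 in HL-60 (difference -3.46). S100A10, the binding partner of ANXA2, was higher in U937 (2.07), as were the actin capper CAPG (2.49) and the tubulins TUBB2A (3.98) and TUBB6 (5.93).

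Many lysosome genes were on the U937 side. Of 39 measured, 24 were higher in U937 and 8 lower (median 0.43, against -0.05 over all genes), and with centred arrays 21 were higher and 12 lower (median 0.17, against -0.30). Their summed intensity was 39177 to 39571 on the U937 arrays and 26066 to 26192 on the HL-60 arrays. CTSH, a lysosomal aminopeptidase, read 677, 656 and 674 in U937 and 25.8, 32.8 and 24.9 in HL-60 (difference 4.60). NPC2, which moves cholesterol out of lysosomes, read 2641, 2777 and 2697 in U937 and 653, 680 and 646 in HL-60 (difference 2.04). GLB1, acid beta-galactosidase, read 1027, 1042 and 1068 in U937 and 356, 373 and 350 in HL-60 (difference 1.54). The U937 arrays were the higher ones for all 3. Acid ceramidase ASAH1 (1.32) and acid lipase LIPA (1.22) were higher as well, with 1 of 4 ASAH1 probe sets at -0.01. CTSL went against the list, at 8.70, 9.67 and 9.21 in U937 and 32.5, 37.7 and 36.5 in HL-60 (difference -1.95).

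**Figure D4:**
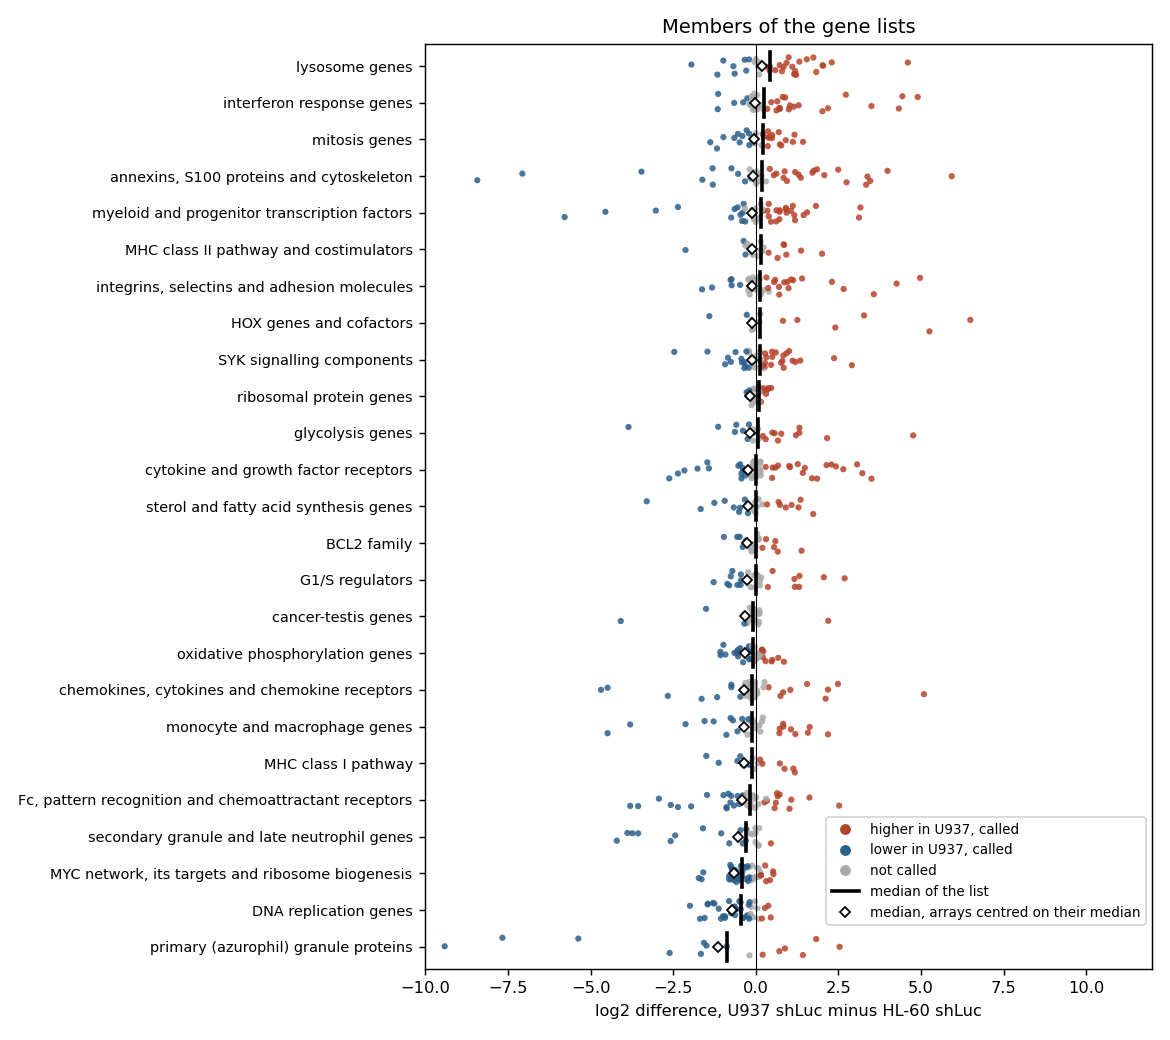
Difference between lines (log2, U937 minus HL-60, horizontal axis) of every measured member of 25 gene lists, ordered by their median. Red points are called higher in U937, blue points called lower, grey points not called, bars mark the median on the deposited scale and diamonds the median with each array centred on its own median. Lysosome genes lie to the right under both scalings, DNA replication genes, the MYC network and later neutrophil genes lie to the left under both, and the median of 12 of the 25 lists, interferon and adhesion genes among them, changes sign under centring.

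Genes of the MYC network and of ribosome biogenesis leaned to HL-60. That line is known to carry extra copies of MYC, and a link between those copies and the differences was not tested. MYC, a factor that drives growth and ribosome production, read 5380, 5280 and 5317 in U937 and 7795, 6705 and 7478 in HL-60 (difference -0.46, SE 0.0617, limma adjusted p = 5.75e-06). Of 47 measured genes of the MYC network and of ribosome biogenesis, 7 were higher in U937 and 31 lower (median -0.41), and 3 and 38 with centred arrays (median -0.66). No U937 rise in this list reached 1 log2. UTP20, a factor of small ribosomal subunit assembly, read 142, 149 and 138 in U937 and 424, 437 and 431 in HL-60 (difference -1.59). MGA, which opposes MYC at its binding sites, was lower in U937 too, at 64.8, 55.5 and 57.5 against 196, 186 and 207 in HL-60 (difference -1.73). The helicase DDX21 (-0.77), the repair nuclease APEX1 (-0.75) and lactate dehydrogenase LDHA (-0.63) were lower by less than 1 log2. DKC1, which modifies ribosomal RNA, was higher (0.53). Among 12 measured genes of the MYC region of its chromosome arm, MYC itself included, 3 were higher in U937 and 5 lower (1 and 8 with centred arrays). TRIB1, a pseudokinase that promotes the breakdown of CEBPA protein, read 10.2, 9.38 and 12.2 in U937 and 252, 273 and 235 in HL-60 (difference -4.59). PVT1 was low in both lines (difference -0.06, limma adjusted p = 0.702).

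Of 39 measured DNA replication genes, 29 were lower in U937, 4 were higher and 6 were not called (median -0.46). With centred arrays 35 were lower and 1 higher (median -0.72). CDC45, part of the replicative helicase, read 112, 111 and 114 in U937 and 438, 446 and 457 in HL-60 (difference -2.0). CDC6, which loads that helicase, read 42.5, 51.5 and 45.0 in U937 and 137, 165 and 147 in HL-60 (difference -1.69). The helicase subunit MCM5 read 248, 253 and 217 in U937 and 659, 667 and 639 in HL-60 (difference -1.45). ORC6 (-1.55), the flap nuclease FEN1 (-1.30) and MCM3 (-0.93) were lower as well, with U937 arrays under HL-60 arrays in each case. MCM6, a subunit of the same helicase, did not pass the test (difference 0.07, limma adjusted p = 0.376), and was called lower with centred arrays. Mitosis genes were split, with 15 higher and 10 lower in U937 of 29 measured (median 0.21), which turned with centred arrays to 9 and 13 (median -0.05). TPX2, a spindle factor, read 1495, 1504 and 1495 in U937 and 564, 538 and 572 in HL-60 (difference 1.43). Cyclin CCNB1 was higher by 1.17, while survivin BIRC5 (-1.38) and the kinetochore protein ZWINT (-1.18) were lower. Of 26 measured regulators of the G1/S step, 8 were higher and 9 lower (6 and 13 with centred arrays). CDKN2A, which codes for inhibitors of CDK4 and of MDM2, read 335, 302 and 312 in U937 and 50.2, 48.2 and 49.0 in HL-60 (difference 2.69). A further CDKN2A probe set differed by -0.03. RB1, the substrate of CDK4 (1.32), the CDK inhibitor CDKN1B (1.17) and E2F5 (2.06) were higher in U937, and cyclin CCNE1 was lower (-1.28).

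Metabolic genes were called in both directions, some with large gaps. Called were 75% of the glycolysis genes, 71.1% of the oxidative phosphorylation genes and 69.2% of the sterol and fatty acid genes, against 52.8% of all genes. Without the dimmest 40% of genes these shares were 76.2%, 76.3% and 70.8%, and that of all genes was 77.6%. The lists thus did not exceed the brighter genes of the array. Of 24 measured glycolysis genes, 11 were higher in U937 and 7 lower (9 and 12 with centred arrays, where the median turned from 0.08 to -0.17). PDK1, a kinase that shuts pyruvate out of the mitochondrial cycle, read 502, 449 and 468 in U937 and 17.0, 17.3 and 18.0 in HL-60 (difference 4.76). Hexokinase HK1 read 289, 296 and 286 in U937 and 66.8, 65.6 and 63.2 in HL-60 (difference 2.15). PFKM, the muscle isoform of phosphofructokinase, read 10.6, 10.8 and 12.7 in U937 and 166, 163 and 163 in HL-60 (difference -3.85). PFKP, the platelet isoform, read 777, 734 and 789 in U937 and 298, 314 and 311 in HL-60 (difference 1.32). Of 38 oxidative phosphorylation genes, 9 were higher in U937 and 18 lower (4 and 29 with centred arrays), with no difference beyond 1.07 in size. The complex I subunit NDUFV2 (-1.07) was among the lower ones and the complex III subunit UQCRC2 (0.85) among the higher. In the list of sterol and fatty acid synthesis, 8 of 26 were higher and 10 lower (7 and 17 with centred arrays). The elongase ELOVL6 read 10.9, 8.55 and 9.71 in U937 and 88.9, 112 and 87.7 in HL-60 (difference -3.30), and the desaturase SCD was higher by 1.29. Of 27 ribosomal protein genes, 9 were higher and 5 lower (51.9% called, near all genes), none by more than 0.46. Their median turned from 0.08 to -0.17 with centred arrays (1 higher, 19 lower).

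Markers of other cell types were mostly low in both lines. Under an intensity of 32 in both were 10 of 11 erythroid, 11 of 11 megakaryocyte, 19 of 20 T and NK cell, 9 of 10 B cell and 14 of 15 epithelial and stromal markers. The exception among T and NK markers was NKG7, a membrane protein of cytotoxic granules, at 1286, 1284 and 1226 in U937 and 168, 146 and 165 in HL-60 (difference 2.99). It was measured in both lines while the T cell markers that define that lineage stayed low. Of 12 measured mast cell, basophil and eosinophil markers, 2 were higher in U937, by up to 2.06, and 4 were lower (1 and 9 with centred arrays). With 50% called, the list was near the 52.8% of all genes. Its summed intensity was 150 to 171 on the U937 arrays and 3769 to 3821 on the HL-60 arrays, where PRG2 alone read 3525 to 3616. CLC, a lectin of eosinophil crystals, was low in both lines (difference -1.49).

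The same line difference was then read on the SYK hairpin arrays. Its means share no array with the shLuc comparison, but both tests use 1 variance per gene, estimated from all 21 arrays. Calls in both are thus not fully independent. Of 12165 genes, 7029 (57.8%) were called between U937 and HL-60 under the SYK hairpins. Of the 6421 genes called under shLuc, 6205 (96.6%) had the same sign and 5545 (86.4%) were called in the same direction, while 46 were called in the opposite one. Of the 1682 with at least 1 log2, 1674 (99.5%) were called in the same direction. The gene called in the opposite direction was IL10RA, a chain of the interleukin-10 receptor, at 43.8, 45.6 and 43.7 in U937 and 20.2, 18.6 and 16.6 in HL-60 under shLuc (difference 1.27). Under the SYK hairpins IL10RA ranged from 60.7 to 72.8 in U937 and from 74.8 to 90.0 in HL-60 (difference -0.26). IL10RA lies outside the rule for named genes and was chosen after its values were seen. The test of the change in the line difference between hairpins called 837 genes (6.88%), of which 343 (2.82%) were positive and 494 (4.06%) negative. That count rose to 1538 without HL-60 shSYK_2 replicate 2. Its fellow, shSYK_2 replicate 1, then stands alone for its group and has labels that conflict on its hairpin. That array also stood apart in its values, with an upper quartile of 122.3 against 134.5 to 139.8 on the other arrays of the series. Without it 868 genes were called in that test, and 6728 between the lines.

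**Figure D5:**
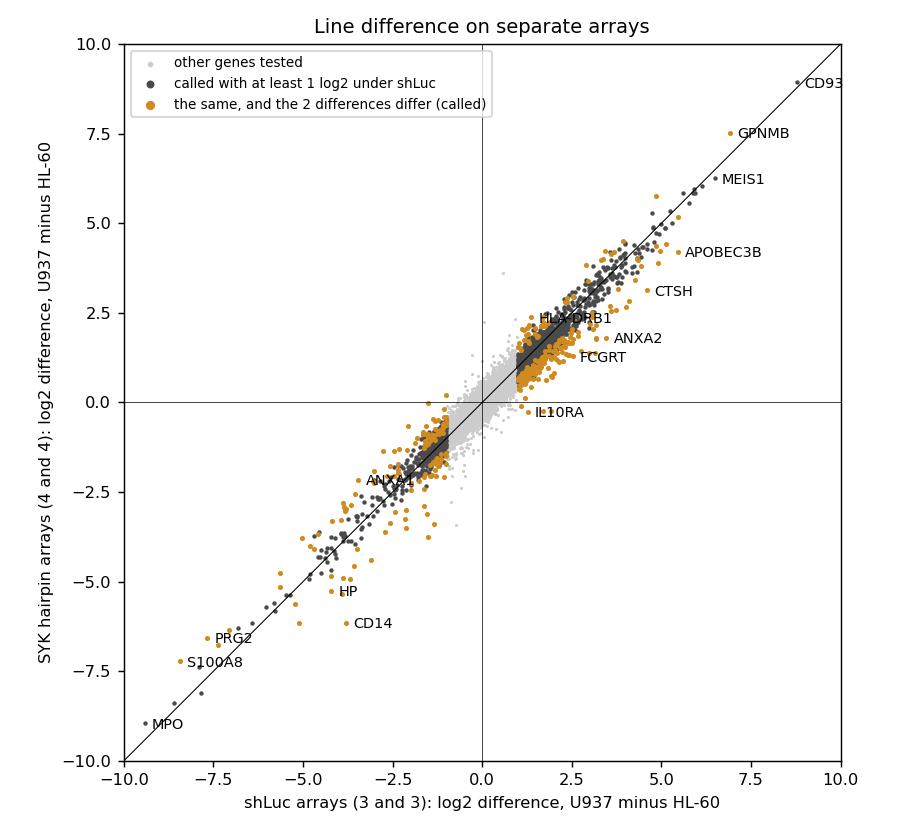
Line difference (log2, U937 minus HL-60) of every gene tested on the shLuc arrays (horizontal axis, 3 and 3 arrays) and on the SYK hairpin arrays (vertical axis, 4 and 4 arrays). Dark points are genes called with at least 1 log2 under shLuc, and orange points are those among them whose line difference was called as different between hairpins (311 of 1682). CD93, MEIS1 and MPO lie close to the line of equal values, CD14 lies below it and IL10RA crosses the horizontal axis.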

How the data were processed

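RNA of 21 samples from 3 lines was measured on Affymetrix high-throughput human arrays. The deposited values are RMA intensities on a linear scale, and RMA is named in the submitters' processing notes without a version. The design had assumed deposited log2 values. Log2 was taken here from the deposited intensities, without a pseudocount. Of 22277 probe sets, 62 were controls, 19724 had 1 gene symbol, 568 several and 1923 none. Symbols were updated by gene ID for 19707. Each of 12165 genes was read by its brightest 1-symbol probe set over all arrays.

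A linear model with moderated variances (limma, version 3.58.1, run under R version 4.3.3, 2-sided) covered all 21 arrays as 9 groups, with 12 residual degrees of freedom, and p-values were adjusted over all genes. The fit was tested on simulated data. One array, HL-60 shSYK_2 replicate 1, has labels that name both hairpins and was grouped by its title. Named genes were the 15 largest differences in each direction with arrays that did not overlap, a high line of at least log2 7 and probe sets of the same sign, a set of fixed genes, and up to 6 members of each list with the smallest p or that define it. Further members, given as examples or because they went against their list, were chosen after their values were seen. The members and lists were chosen with earlier results of these data known. Some lists are not reported here. Probes of near-identical genes cannot be told apart. Alternatives covered arrays in the fit, scaling, pseudocount, dim genes, probe sets, prior, array weights, replicate block and left-out arrays. Array number limits precision.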

Additional observations from a re-analysis of the deposited data

Results flagged for a closer look

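For the genes below, the difference between U937 and HL-60 under the SYK hairpins differed from that under shLuc by limma's interaction test (adjusted p below 0.05 over all genes). Values are the SYK hairpin difference minus the shLuc difference on the log2 scale. CD14 changed most among the genes described, by -2.34. It ranged from 6.34 to 8.52 in U937 and from 308 to 727 in HL-60 under the SYK hairpins. IL10RA changed by -1.53, so that its sign turned. Among inflammatory and granule genes the values were positive for S100A8 (1.21), S100A9 (0.72), PRG2 (1.10), CHI3L1 (1.07), CTSG (0.38), SERPINB10 (0.50), CAMP (0.59) and TNF (0.62). They were negative for HP (-1.05), S100A12 (-0.78), CEACAM6 (-0.61) and SERPINB1 (-0.49). S100A8 ranged from 14.6 to 149 on the U937 arrays with SYK hairpins. Antiviral and antigen presentation genes were negative for APOBEC3B (-1.25), MX2 (-1.01), CD74 (-0.72), IFITM1 (-0.64), PSMB8 (-0.52), PSMB9 (-0.49), PLSCR1 (-0.44) and IFITM2 (-0.34) and positive for HLA-DRB1 (1.00). Replication and mitosis genes were negative: MCM5 (-0.59), ZWINT (-0.49), TPX2 (-0.44), MCM3 (-0.43), FEN1 (-0.42), BIRC5 (-0.29) and CDC45 (-0.25). The other positive values belonged to ANXA1 (1.30), TRIB1 (0.92), BLMH (0.88), CD163 (0.67), FCGR1A (0.64), TFRC (0.63), GPNMB (0.62), LAPTM4B (0.61), C3AR1 (0.47), TYROBP (0.42), RASGRP2 (0.38), SOX4 (0.30) and PRKCB (0.28). The other negative values belonged to ANXA2 (-1.66), CTSH (-1.47), ID1 (-1.40), ITGB7 (-1.25), FCGRT (-1.23), HK1 (-1.02), ICAM4 (-0.84), ITGA6 (-0.75) and KLF4 (-0.74). Negative values were also found for DENND2D (-0.71), S100A10 (-0.70), CD44 (-0.68), CX3CR1 (-0.65), CEBPB (-0.62), CSF2RA (-0.54), CAPG (-0.45), CTSB (-0.41), FCGR2A (-0.37) and GFI1 (-0.36).

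KLF4 is named in the report as background only and differed by -0.42 under shLuc. Most of the other genes were described because of their shLuc difference, and the shLuc arrays enter both the description and the interaction, so a smaller difference under the SYK hairpins is not independent evidence. Of the 311 genes of at least 1 log2 with such a call, 226 had the smaller difference under the SYK hairpins.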

How the results depend on the processing

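The 6421 calls between U937 and HL-60 numbered 6488 with the 6 arrays alone, 6554 with the 9 shLuc arrays and 6765 with array weights. Centring each array on its median gave 6980 lower calls, 1092 of them of at least 1 log2, and 7092 lower calls under the SYK hairpins, and 613 positive calls for the change in line difference. Scaling to the 75th percentile left 44.71% of called genes higher in U937, against 48.81% on the deposited scale and 23.97% with centring. The change in line difference was called for 1294 genes (627 positive) with a pseudocount of 16, and had 570 positive calls with a trended, robust prior. Leaving out 1 array in turn gave 6052 to 6619 calls between the control lines, 1682 to 1698 of at least 1 log2 and 6558 to 7315 under the SYK hairpins. For the change in line difference it gave 594 to 1538 (221 to 824 positive). The highest count was without HL-60 shSYK_2 replicate 2 and the lowest without U937 shLuc replicate 3, and the cause was not tested.

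Among the genes named, MCM6 (-0.18) and RNASE2 (-0.048) changed sign with centring. Centring also called B2M, CEBPA, CSF1R, CD34, CD68, CD163, FCER1G, IRF7, LYN, MRC1, PVT1, CDK4, CSF1 and MDM2 lower, and CAMP lost its call. B2M was called without the dimmest genes and with the 75th percentile, the pseudocount and the other prior as well, CD163 and CIITA with the mean of probe sets, and CIITA, CSF1 and MRC1 without 1 array. SYK and TAP2 lost theirs with the mean of probe sets, and RNASE2 without HL-60 shLuc replicate 2. Of 35 list medians, 15 changed sign with centring, 3 with the 75th percentile, 3 with the mean of probe sets, 4 without the dimmest 40% of genes and 0 with the pseudocount. Arrays with the same replicate number did not deviate together (correlations 0.0096, 0.0253 and 0.0076). With the replicate block 6347 genes were called between the control lines, 1682 of at least 1 log2, 6953 under the SYK hairpins and 720 for the change in line difference. Low intensities limit what can be read: folds against such levels are understated.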

Other observations

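Of the 1682 genes that differed by at least 1 log2, 694 were read by several probe sets. All of their probe sets had the same sign for 536 of them, and 29 had a probe set called in the opposite direction. A called difference of at least 3 log2 was found for 240 genes, 150 higher and 90 lower in U937.

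The following lists lay near or under the background of 52.8% called, at 57.9%, 21.7% and 38.5% in this order. Adhesion molecules, cytokines and chemokines, class II genes and ribosomal protein genes, described above, lay there too. Adhesion molecules and cytokines lay above all genes once the dimmest 40% were left out. Called were also 59.3% of cytokine and growth factor receptors, 60.9% of later neutrophil genes, 61% of interferon genes and 61.5% of HOX genes and cofactors. The share was 65.1% for antibody, microbe and attractant receptors, 65.4% for G1/S regulators and 65.6% for monocyte and macrophage genes. Of 19 measured BCL2 family genes, 6 were higher and 5 lower (4 and 10 with centred arrays). BCL2L1, a survival factor, read 125, 123 and 92.8 in U937 and 42.0, 47.8 and 39.95 in HL-60 (difference 1.38). BCL2, of the same function, read 159, 157 and 166 in U937 and 328, 315 and 300 in HL-60 (difference -0.97). Of 23 cancer-testis genes, 21 were low in both lines, 1 was higher in U937 and 4 were lower (1 and 12 with centred arrays). PRAME, a tumour antigen, read 14.2, 12 and 12.4 in U937 and 181, 262 and 219 in HL-60 (difference -4.09). Of 13 measured genes of the CDKN2A region, CDKN2A itself included, 4 were higher in U937 and 1 lower. Their median turned from 0.06 to -0.20 with centred arrays.

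MOLM-14, the third line of the series and a monocytic acute myeloid leukaemia line, was set beside both under shLuc (3 arrays), as a description with no test. Of the 1682 genes, its mean lay nearer U937 for 672 and nearer HL-60 for 1010. CD93 averaged 9.19 log2 in MOLM-14, MEIS1 8.14 and MPO 6.15, each between the levels of U937 and HL-60. All 3 lay nearer U937, unlike most of the 1682 genes.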
